A study of Homo sapiens with 6 samples.

Results

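The lysosomal genes described here are 56 genes for hydrolases and their activators, membrane proteins of the lysosome, and the vacuolar proton pump (V-ATPase), measured in ARPE-19, a human cell line that grew out of retinal pigment epithelium. They were listed by symbol, with earlier results of these data known, and all 56 were found among the 60835 loci of the deposited table. Cells labelled WT were kept for 72 h in high glucose medium or for 72 h in normal glucose medium, with 3 RNA libraries per group. No glucose concentration is given in the sources used here, all libraries come from 1 cell line, and nothing states that the libraries of a group were separate cultures, so the p-values rest on a spread between libraries that may be technical. In bulk RNA, fewer cells of a kind and less RNA per cell cannot be told apart.

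The lysosome breaks down proteins, glycans, lipids and nucleic acids that reach it by endocytosis, phagocytosis and autophagy. Its soluble hydrolases work best at acid pH, which is set by the V-ATPase, a rotary pump with a cytosolic ATP-splitting sector (V1) and a membrane sector that moves protons (V0). In the eye the retinal pigment epithelium relies on this system every day, since it engulfs and digests the shed tips of photoreceptors. Many lysosomal genes carry a short promoter element bound by the related transcription factors TFEB, TFE3 and MITF.

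The libraries held 81616741 to 87748820 counts. At 42.3% of 25025 tested loci the groups did not overlap. Of the normal glucose libraries, library 3 lay nearest to the high glucose mean at 44.8% of tested loci. Values below that are listed by library run in the order 1, 2 and 3, in CPM (counts scaled to TMM library size) unless FPKM is named, and an estimate is a log2 change, high minus normal glucose. Of 14 markers of retinal pigment epithelium, RPE65, TYR and TTR had too few counts to be tested. Of the other 11, KRT8 and KRT18, keratins that other epithelia also make, rose (log2 change 1.66, edgeR adjusted p = 0.0152, and 1.88, 0.00636). BEST1, a chloride channel of this tissue, fell (log2 change -2.20, edgeR adjusted p = 0.0113). KRT8 had an adjusted p of 0.0531 to 0.0601 when normal glucose 1 or any high glucose library was left out, and BEST1 of 0.0545 to 0.0551 when high glucose 1 or 2 was. The 14 markers summed to 2248 to 2372 CPM in high glucose and 625 to 1174 CPM in normal glucose, but without KRT8 and KRT18 the other 12 summed to 128 to 165 CPM in high glucose and 173 to 193 CPM in normal glucose. The sum thus lay higher in high glucose with the keratins and lower without them, with no overlap between the groups in either case. Much of the lower sum lay in MITF, which was not called (edgeR adjusted p = 0.103). It was at 58, 62.7 and 28.7 CPM in high glucose, against 80.5, 86.7 and 82.2 CPM in normal glucose. OTX2, LRAT and RDH5, the last in a locus with BLOC1S1, had positive estimates (0.16, 0.20 and 0.38) and were not called. Of the 11 tested markers, 5 had a positive and 6 a negative estimate. Of 12 macrophage markers, AIF1, TYROBP and C1QA were at 0 in every library. The list summed to 25.2 to 31.5 CPM in high glucose and 10.6 to 16.9 CPM in normal glucose. Most of that sum came from CD74, an antigen presentation gene. Of the 5 that were tested, CD74 rose (log2 change 1.15, edgeR adjusted p = 0.0117), as did ITGAM (4.22, 0.0451). The other 3 were not called, FCER1G with a positive estimate and CSF1R and CD14 with negative ones. CD14 had 16, 8 and 8 counts in high glucose, against 15, 77 and 22 in normal glucose, so its groups overlapped. ITGAM had 27, 31 and 24 counts in high glucose, against 0, 4 and 0 in normal glucose. CD74 had an adjusted p of 0.0515 to 0.0547 when high glucose 1 or 3 was left out. ITGAM lost the call when any library other than normal glucose 2 was left out. The 10 fibroblast markers summed to 255 to 260.2 CPM in high glucose and 199.9 to 318 CPM in normal glucose. PDGFRB, the receptor that holds most of that sum in high glucose, rose (log2 change 0.68, edgeR adjusted p = 0.00572), and without it the other 9 summed to 95.4 to 96.8 CPM in high glucose and 104 to 216 CPM in normal glucose. By library those 9 were at 216, 114 and 104 CPM in normal glucose, so library 1 alone made the top of that range. Of this sum PDGFRA, in a locus with FIP1L1, held 45.1 to 48.8 CPM in high glucose and 42.6 to 46.9 CPM in normal glucose. COL1A1, a collagen gene, and TWIST1, a transcription factor gene, fell (log2 change -2.49, edgeR adjusted p = 0.0302, and -0.89, 0.0203), and both lost the call when any library other than normal glucose 3 was left out (0.0629 to 0.108 and 0.0526 to 0.0879). The part of these marker differences in the lysosomal results was not tested.

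Lysosomal genes were on balance lower in high glucose. Of the 56 genes, 16 fell and 2 rose at an edgeR adjusted p under 0.05 (quasi-likelihood test, Benjamini-Hochberg adjustment over all tested loci), and 38 did not pass the test. In either direction 32.1% of the members were called, against a background of 19.6% of all tested loci. The 16 make up 28.6% of the members, where 9.86% of all tested loci were called lower, and the 2 make up 3.57%, where 9.75% were called higher. Of the 56 genes, 55 reached a mean of at least 10 CPM. Among 9430 loci at that level with a protein-coding transcript, 15.2% were lower and 13.2% higher, or 28.4% in either direction. The median log2 change of the 56 genes was -0.26, against -0.0042 over all tested loci. The groups did not overlap at 27 genes that were lower and 5 that were higher in high glucose, or 48.2% and 8.93% of the members, where 20.5% and 21.8% of all tested loci separated in those directions. Most changes were small: the 16 lower genes ran from -1.24 to -0.39 on the log2 scale with a median of -0.61, and CTSK alone fell to less than 0.5 of its normal glucose level. The number of lower genes was 5 when any high glucose library was left out, 8 and 9 without normal glucose 1 and 2, and 25 without normal glucose 3. The calls over all loci, in either direction, moved the same way from 4906 with all libraries. They numbered 1631, 1421 and 1507 without high glucose 1, 2 and 3. Without normal glucose 1, 2 and 3 they numbered 2846, 2727 and 7615. CTSC, CTSK, NPC1 and MCOLN1 stayed under the threshold in all 14 alternatives.

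Summed over the 56 loci, the members held 13789, 13559 and 13916 CPM in high glucose, against 17568, 18548 and 17352 CPM in normal glucose. Their summed level in high glucose was thus 0.772 of that in normal glucose, with no overlap between the groups. The 41 loci that hold no second gene name gave 9055 ± 195 CPM in high glucose and 11529 ± 665 CPM in normal glucose (SD, n = 3 each), a ratio of 0.785. PSAP, the precursor of the saposins that help enzymes reach their lipid substrates, held 21.7% ± 0.429 of the summed level in high glucose and 21.6% ± 2.99 in normal glucose. CTSD held 15.3% ± 0.637 in high glucose and 18.1% ± 3.19 in normal glucose, and CTSK 1.79% ± 0.0339 in high glucose and 3.28% ± 1.05 in normal glucose. CTSK therefore made up a smaller share in every high glucose library than in any normal glucose library, and the shares of PSAP and of CTSD overlapped between the groups.

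Levels were compared between genes only per length, as FPKM deposited by the authors. PSAP was by far the most abundant at 771 and 971 FPKM in high and normal glucose, followed by CTSD (168 and 251), CTSK (111 and 255), ATP6V1F (184 and 173) and CD63 (144 and 213). In normal glucose each of the last 4 overlapped in range with at least 1 other of them, so their order there is not settled. At the low end stood CTSS, a cysteine protease of antigen-presenting cells, at 0.149, 0.17 and 0.211 FPKM in high glucose, against 0.373, 0.178 and 0.448 FPKM in normal glucose. The median of the 56 genes over all libraries was 15.5 FPKM, and 43 of them averaged at least 10. At 15 of the 56 genes the locus also holds another gene name, and the reads of the genes were not divided here, so both the level per length and the change belong to the locus. Those loci are marked below, but most clone-named partners and a pseudogene partner are left out. NAGLU and ATP6V0A1 lie in separate loci that both hold the clone-named AC067852.

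**Figure D1:**
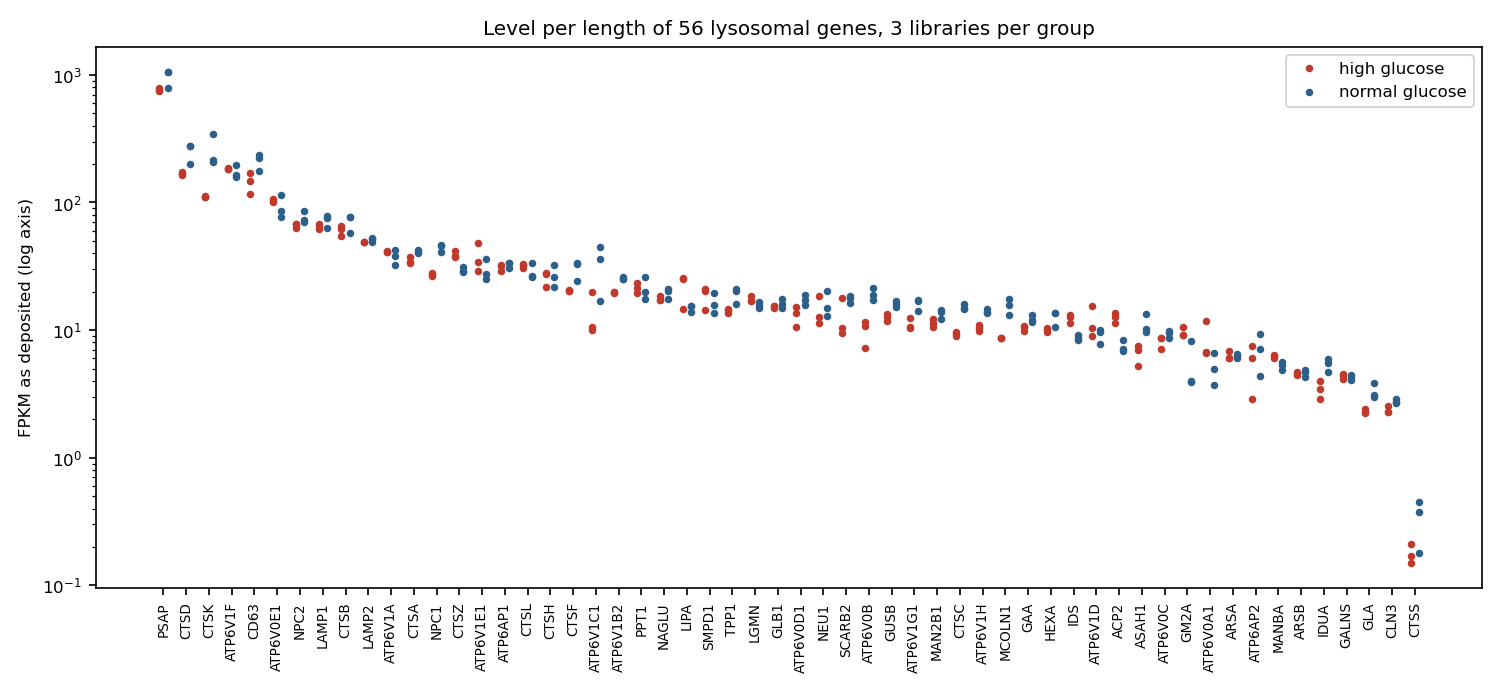
Level of the 56 lysosomal genes in deposited FPKM (log axis), ordered by mean over all libraries, with 3 points for high glucose on the left and 3 for normal glucose on the right of each gene. PSAP stands above all others and CTSS below them, and the span between them is far wider than any difference between the groups.

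**Figure D2:**
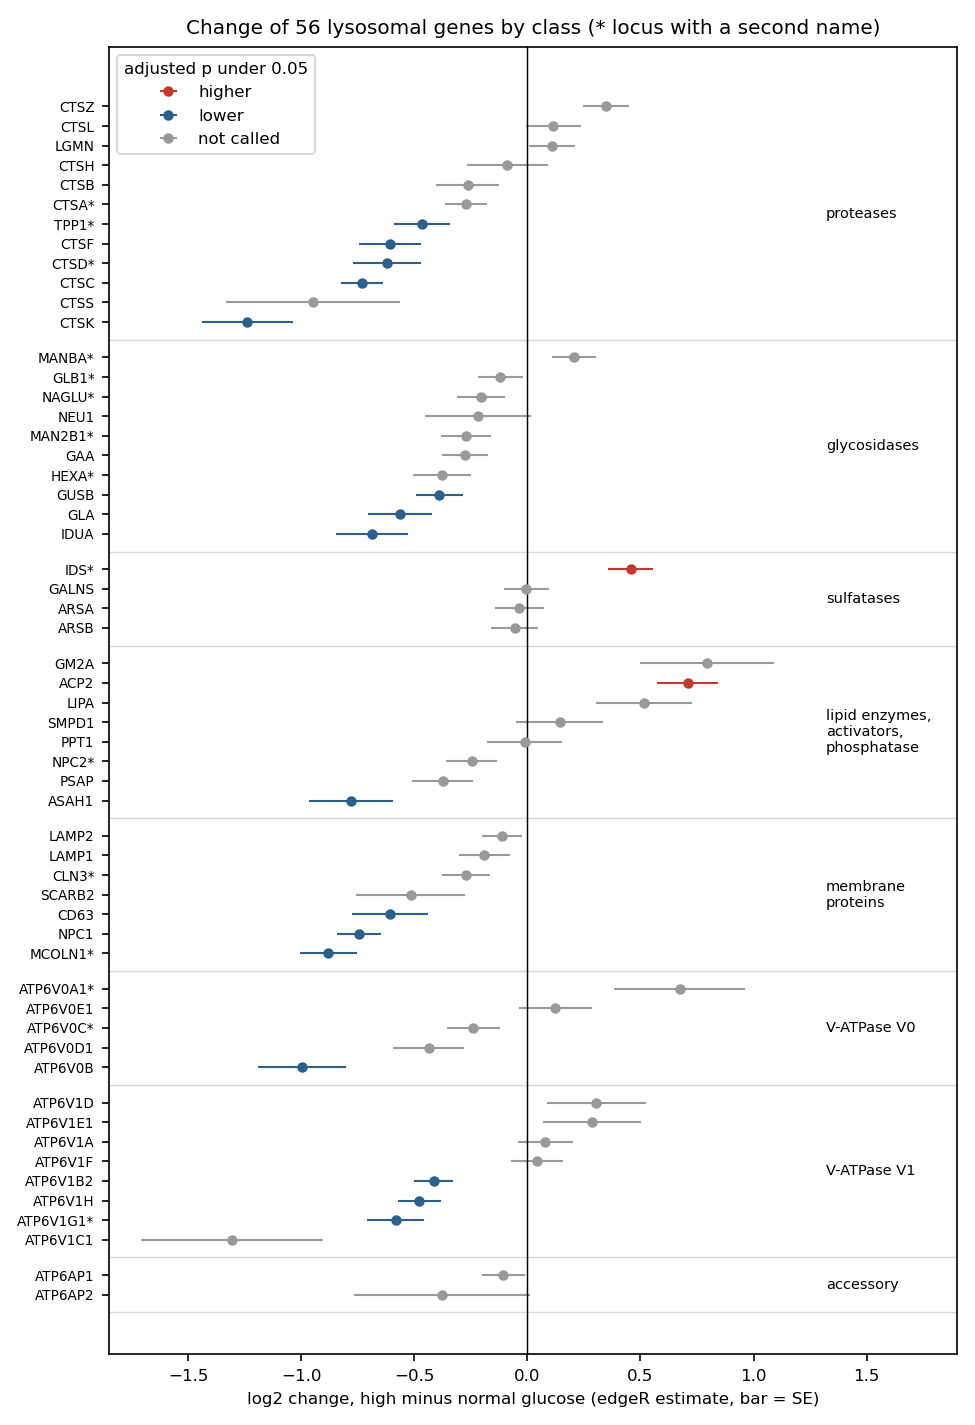
Log2 change (high minus normal glucose, edgeR estimate with SE) of each gene, grouped by class, with genes past the adjusted p threshold coloured. All 7 membrane proteins and the 2 V-ATPase accessory genes lie below 0, while every other class has genes on both sides.

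Proteases fell or did not pass the test: of 12, 5 fell (CTSK, CTSC, CTSD, CTSF and TPP1) and none rose, with a median log2 change of -0.37. The 5 make up 41.7% of the class, where 9.86% of all tested loci were called lower. Among protein-coding loci with a mean of at least 10 CPM that share was 15.2%. CTSK, a cysteine protease best known for cutting collagen in osteoclasts, was at 242, 247 and 251 CPM in high glucose, against 473, 492 and 780.5 CPM in normal glucose. The estimate for CTSK was -1.24 (SE 0.2; edgeR adjusted p = 0.00902). The high glucose libraries lay within a narrow band, while normal glucose library 3 stood well above the other normal glucose libraries. CTSC, a dipeptide-removing peptidase that activates serine proteases of immune cells, was at 128, 126 and 135 CPM in high glucose, against 209, 225 and 212 CPM in normal glucose. The estimate for CTSC was -0.73 (SE 0.0932; edgeR adjusted p = 0.00478). Here all 3 normal glucose libraries lay close together and far above every high glucose library. CTSD, the aspartic protease that does much of the digestion of photoreceptor tips in this tissue, shares its locus (chr11:1732406-1763948) with IFITM10 and a clone-named gene. Its locus was at 2088, 2169.5 and 2053 CPM in high glucose, against 2557, 3563 and 3584 CPM in normal glucose. The estimate for CTSD was -0.62 (SE 0.148; edgeR adjusted p = 0.0288). Normal glucose library 1 lay nearest to the high glucose libraries but still above them. CTSF, a cysteine protease mutated in a storage disease of neurons, was at 70.6, 73.3 and 71.6 CPM in high glucose, against 121, 118 and 88.8 CPM in normal glucose. The estimate for CTSF was -0.61 (SE 0.139; edgeR adjusted p = 0.0251). TPP1, a peptidase that removes tripeptides and is mutated in another such disease, shares its locus (chr11:6606294-6619448) with TAF10, a general transcription factor subunit. Its locus was at 218, 215 and 204 CPM in high glucose, against 310.1, 322 and 249 CPM in normal glucose. The estimate for TPP1 was -0.47 (SE 0.124; edgeR adjusted p = 0.0394). For CTSF and TPP1 alike, normal glucose library 3 was the lowest of its group, and the groups did not overlap.

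CTSD lost the call when normal glucose 2 or any high glucose library was left out (edgeR adjusted p of 0.0765 to 0.109), and CTSF and TPP1 did so when any library other than normal glucose 3 was left out (0.0736 to 0.0949 and 0.102 to 0.143). CTSZ, a carboxypeptidase, had the opposite sign, at 91.4, 103 and 94.3 CPM in high glucose, against 73, 79.6 and 74.2 CPM in normal glucose. The estimate for CTSZ was 0.35 (SE 0.101; edgeR adjusted p = 0.0512). Its groups did not overlap, and without normal glucose 3 its adjusted p was 0.0418. CTSA, which protects other enzymes as well as trimming peptides, in a locus with ZSWIM1, and CTSB, an abundant cysteine protease, had estimates of -0.27 (adjusted p = 0.0855) and -0.26 (adjusted p = 0.232), and without normal glucose 3 their adjusted p was 0.0401 and 0.0189. CTSS was listed at an estimate of -0.95 (adjusted p = 0.129), and at 0.0474 without normal glucose 2. The general cysteine proteases CTSL and CTSH and the asparagine-specific LGMN had estimates of 0.12 (adjusted p = 0.559), -0.088 (adjusted p = 0.767) and 0.11 (adjusted p = 0.507), with groups that overlapped.

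Among 10 glycosidases, which take sugars off glycans and glycolipids from their ends, 3 fell (30%) and none rose, with a median log2 change of -0.27. Of all tested loci 9.86% were called lower, and of protein-coding loci with a mean of at least 10 CPM 15.2%. IDUA, which cuts iduronic acid from dermatan and heparan sulfate, was at 22.8, 20 and 16.8 CPM in high glucose, against 27.7, 35.3 and 32.9 CPM in normal glucose. The estimate for IDUA was -0.69 (SE 0.161; edgeR adjusted p = 0.027). GLA, the galactosidase missing in Fabry disease, was at 17, 18.2 and 16.8 CPM in high glucose, against 23.9, 29.8 and 23.2 CPM in normal glucose. The estimate for GLA was -0.56 (SE 0.142; edgeR adjusted p = 0.0341). GUSB, a glucuronidase, was at 55, 63.8 and 60 CPM in high glucose, against 81.8, 77.8 and 74.8 CPM in normal glucose. The estimate for GUSB was -0.39 (SE 0.105; edgeR adjusted p = 0.0413). At these 3 genes every high glucose library lay below every normal glucose library. IDUA lost the call when normal glucose 2 or any high glucose library was left out (edgeR adjusted p of 0.0579 to 0.0995), and GLA and GUSB did so when any library other than normal glucose 3 was left out (0.0624 to 0.126 and 0.0907 to 0.158).

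The other 7 glycosidases did not pass the test, and 6 of them had a negative sign. NAGLU, a heparan sulfate enzyme in a locus with COASY, was the most abundant of the class per length and was at 154, 145 and 147 CPM in high glucose, against 184, 177 and 154 CPM in normal glucose. The estimate for NAGLU was -0.21 (SE 0.105; edgeR adjusted p = 0.214). GLB1, the galactosidase used as a senescence stain, in a locus with TMPPE, was at 14.9, 15.5 and 15.4 FPKM in high glucose, against 17.4, 14.8 and 16.1 FPKM in normal glucose. The estimate for GLB1 was -0.12 (SE 0.101; edgeR adjusted p = 0.458). HEXA, the Tay-Sachs enzyme in a locus with PARP6 and CELF6, had an estimate of -0.38 (adjusted p = 0.0802), GAA, which breaks down glycogen, of -0.28 (adjusted p = 0.102), and MAN2B1, a mannosidase in a locus with DHPS and WDR83OS, of -0.27 (adjusted p = 0.132). Without normal glucose 3 the adjusted p was 0.00377 for HEXA, 0.0461 for GAA, 0.0335 for MAN2B1 and 0.0339 for NAGLU. NEU1, a sialidase, had an estimate of -0.22 (adjusted p = 0.561), and MANBA, a mannosidase that shares its locus with a pseudogene, of 0.21 (adjusted p = 0.189).

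Of 4 sulfatases, which remove sulfate from glycosaminoglycans and sulfolipids, 1 rose (25%) and none fell. Of all tested loci 9.75% were called higher, and of protein-coding loci with a mean of at least 10 CPM 13.2%. A class of 4 genes is too small to set against those shares. IDS, the iduronate sulfatase missing in Hunter syndrome, in a locus (chrX:149476988-149540842) with the long noncoding RNA LINC00893, was at 235, 206 and 232 CPM in high glucose, against 163, 169.8 and 157 CPM in normal glucose. The estimate for IDS was 0.46 (SE 0.101; edgeR adjusted p = 0.0225). It lost the call when normal glucose 1 or any high glucose library was left out (edgeR adjusted p of 0.0616 to 0.0953). ARSA, which acts on sulfatide, was at 38.4, 33.9 and 33.8 CPM in high glucose, against 37.3, 35 and 36.4 CPM in normal glucose. The estimate for ARSA was -0.035 (SE 0.11; edgeR adjusted p = 0.854). ARSB and GALNS, which act on glycosaminoglycans, had estimates of -0.056 (adjusted p = 0.749) and -0.0045 (adjusted p = 0.982), and at these 3 genes the groups overlapped.

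Lipid enzymes, lipid-binding activators and the acid phosphatase went both ways: of 8 genes, 1 fell and 1 rose (12.5% each). These shares lie near those of protein-coding loci with a mean of at least 10 CPM, 15.2% lower and 13.2% higher. Over all tested loci 9.86% were called lower and 9.75% higher. ASAH1, the acid ceramidase, was at 130.2, 98.7 and 142 CPM in high glucose, against 194, 184 and 258 CPM in normal glucose. The estimate for ASAH1 was -0.78 (SE 0.186; edgeR adjusted p = 0.0288). ACP2, an acid phosphatase, was at 47.9, 58 and 53.7 CPM in high glucose, against 30, 30.7 and 36.9 CPM in normal glucose. The estimate for ACP2 was 0.71 (SE 0.134; edgeR adjusted p = 0.0143). Both genes separated the groups completely, in opposite directions. ASAH1 lost the call when normal glucose 1 or any high glucose library was left out (edgeR adjusted p of 0.06 to 0.0977), and ACP2 when high glucose 2 or 3 was left out (0.0627 to 0.0694). PSAP was at 2968, 2895 and 3085 CPM in high glucose, against 4209.7, 4213 and 3171 CPM in normal glucose. The estimate for PSAP was -0.37 (SE 0.135; edgeR adjusted p = 0.0965). Normal glucose library 3 lay just above the high glucose range and the other normal glucose libraries far above it, and without library 3 the adjusted p was 0.00205. NPC2, which hands cholesterol to NPC1, in a locus with a microRNA gene, was at 210.1, 199.6 and 214 CPM in high glucose, against 227, 234 and 279 CPM in normal glucose. The estimate for NPC2 was -0.25 (SE 0.113; edgeR adjusted p = 0.172).

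GM2A, the activator that lifts GM2 ganglioside out of the membrane for HEXA, was at 81.9, 72.4 and 72.1 CPM in high glucose, against 31.5, 32.1 and 66.9 CPM in normal glucose. The estimate for GM2A was 0.80 (SE 0.295; edgeR adjusted p = 0.103). Here too normal glucose library 3 lay nearest to the high glucose libraries, and without it the estimate was 1.25 (edgeR adjusted p = 0.000767). LIPA, which frees cholesterol and fatty acids from lipoproteins, had an estimate of 0.52 (adjusted p = 0.136), and an adjusted p of 0.0331 without high glucose 3. SMPD1, the acid sphingomyelinase, and PPT1, which removes palmitate from proteins, had estimates of 0.14 (adjusted p = 0.649) and -0.012 (adjusted p = 0.969).

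All 7 lysosomal membrane proteins had a negative log2 change, with a median of -0.52, and 3 of them fell: NPC1, MCOLN1 and CD63. That is 42.9% of a small class. Of all tested loci 9.86% were called lower, and of protein-coding loci with a mean of at least 10 CPM 15.2%. NPC1, the membrane protein that exports cholesterol from the lysosome, was at 322, 311 and 330.3 CPM in high glucose, against 551, 563 and 499.7 CPM in normal glucose. The estimate for NPC1 was -0.74 (SE 0.097; edgeR adjusted p = 0.00509). MCOLN1, a calcium-permeable channel of the lysosome, shares its locus (chr19:7522624-7561764) with PNPLA6, a phospholipase gene, and the locus was at 136, 137 and 137 CPM in high glucose, against 213, 256 and 285 CPM in normal glucose. The estimate for MCOLN1 was -0.88 (SE 0.126; edgeR adjusted p = 0.00655). The high glucose libraries differed little from one another at either gene and lay far below the normal glucose range. CD63, a tetraspanin of late endosomes and exosomes, was at 562, 493 and 391 CPM in high glucose, against 772, 815 and 617 CPM in normal glucose. The estimate for CD63 was -0.61 (SE 0.169; edgeR adjusted p = 0.0461). High glucose library 1 and normal glucose library 3 came close to each other at CD63, and the call was lost when any library other than normal glucose 3 was left out (adjusted p of 0.0702 to 0.142), with upper-quartile scaling (0.0521) and on FPKM values (0.0737 and 0.073).

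LAMP1 and LAMP2, the heavily glycosylated proteins that line the inside of the lysosomal membrane, differed less. LAMP1 was at 455, 433 and 476 CPM in high glucose, against 541, 560.3 and 455 CPM in normal glucose. The estimate for LAMP1 was -0.19 (SE 0.114; edgeR adjusted p = 0.288). Its groups overlapped, and its adjusted p was 0.0328 without normal glucose 3. LAMP2 had an estimate of -0.11 (adjusted p = 0.422), with groups that did not overlap. SCARB2, the receptor that carries glucocerebrosidase to the lysosome, was at 222, 243 and 419.6 CPM in high glucose, against 429.6, 389 and 447 CPM in normal glucose. The estimate for SCARB2 was -0.52 (SE 0.241; edgeR adjusted p = 0.178). High glucose library 3 lay among the normal glucose libraries and the other high glucose libraries far below, and without it the estimate was -0.86 (edgeR adjusted p = 0.0308). CLN3, a membrane protein mutated in juvenile storage disease of neurons, in a locus with NPIPB7, had an estimate of -0.27 (adjusted p = 0.118).

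**Figure D3:**
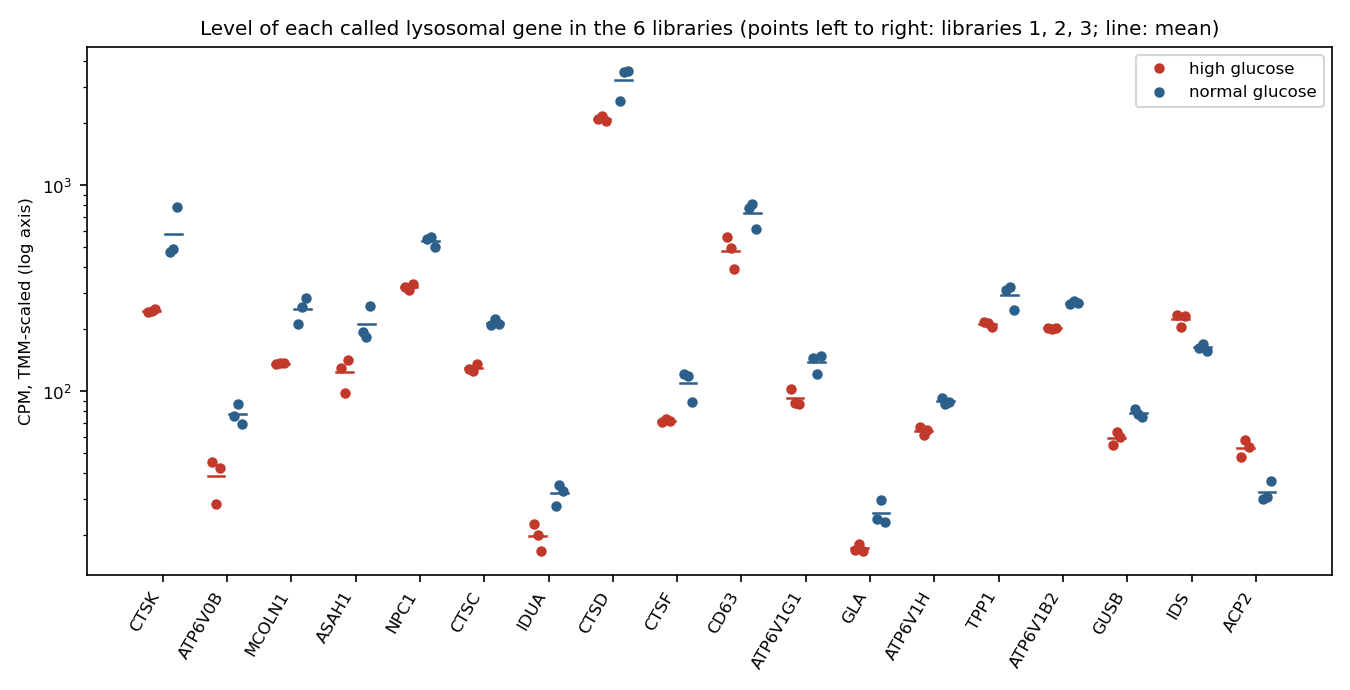
CPM (log axis) of the 18 called lysosomal genes in each library, ordered by log2 change, with high glucose on the left and normal glucose on the right of each gene, libraries 1 to 3 from left to right and a line at the mean. The 16 genes on the left are lower in every high glucose library, and IDS and ACP2 on the right are higher.

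Subunits of the V-ATPase did not move as one. Of 15 genes, 4 fell (ATP6V0B, ATP6V1H, ATP6V1B2 and ATP6V1G1), none rose and 11 did not pass the test, with 6 positive and 9 negative signs and a median log2 change of -0.24. The 4 make up 26.7%, where 9.86% of all tested loci were called lower. Among protein-coding loci with a mean of at least 10 CPM that share was 15.2%. ATP6V1A and ATP6V1F, which did not pass the test, changed sign in 1 of the 14 alternatives each. In the membrane sector 1 of 5 genes fell (20%), a count too small to set against the shares above. ATP6V0B, a proteolipid of the proton-carrying ring, was at 45.4, 28.5 and 42.6 CPM in high glucose, against 76.1, 86.6 and 69.6 CPM in normal glucose. The estimate for ATP6V0B was -0.997 (SE 0.193; edgeR adjusted p = 0.0152). It had an adjusted p of 0.0501 to 0.0559 when high glucose 3 or normal glucose 2 was left out. ATP6V0E1, a small membrane subunit and the most abundant V0 gene per length, was at 195, 209 and 202 CPM in high glucose, against 153, 170.2 and 233 CPM in normal glucose. The estimate for ATP6V0E1 was 0.12 (SE 0.163; edgeR adjusted p = 0.639). Its normal glucose libraries spanned the whole high glucose range, and without normal glucose 3 its adjusted p was 0.0321 with an estimate of 0.32. ATP6V0D1, which links the ring to the central stalk, was at 104, 136 and 152 CPM in high glucose, against 161, 193 and 176 CPM in normal glucose. The estimate for ATP6V0D1 was -0.44 (SE 0.158; edgeR adjusted p = 0.0975). ATP6V0C, the main ring proteolipid, lies in a merged locus (chr16:2475051-2679471) with TBC1D24, AMDHD2 and PDPK1 whose log2 change was -0.24 (adjusted p = 0.197).

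In the ATP-splitting sector 3 of 8 genes fell (37.5%). Of all tested loci 9.86% were called lower, and of protein-coding loci with a mean of at least 10 CPM 15.2%. ATP6V1H, which couples ATP splitting to pumping, was at 67.2, 61.1 and 64.6 CPM in high glucose, against 92.9, 87.1 and 88.6 CPM in normal glucose. The estimate for ATP6V1H was -0.48 (SE 0.0962; edgeR adjusted p = 0.0172). ATP6V1B2, the widely expressed B subunit of the catalytic ring, was at 202, 200.3 and 204 CPM in high glucose, against 265, 274 and 268 CPM in normal glucose. The estimate for ATP6V1B2 was -0.41 (SE 0.0872; edgeR adjusted p = 0.0196). ATP6V1G1, part of the outer stalks, in a locus (chr9:114587730-114646422) with TMEM268, was at 103, 88.2 and 86.4 CPM in high glucose, against 146, 121 and 148 CPM in normal glucose. The estimate for ATP6V1G1 was -0.58 (SE 0.126; edgeR adjusted p = 0.0215). At these 3 genes every high glucose library lay below every normal glucose library. ATP6V1B2 lost the call when any high glucose library was left out (edgeR adjusted p of 0.087 to 0.0969), and ATP6V1H and ATP6V1G1 did so when normal glucose 1 or any high glucose library was left out (0.0521 to 0.0892 and 0.0527 to 0.096).

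ATP6V1C1, a subunit that joins V1 to V0 and marks the point where the pump comes apart, had the most negative estimate of all 56 genes but did not pass the test. It was at 71, 141 and 75 CPM in high glucose, against 264, 324 and 124 CPM in normal glucose. The estimate for ATP6V1C1 was -1.31 (SE 0.402; edgeR adjusted p = 0.0617). High glucose library 2 lay above normal glucose library 3, and without normal glucose 3 the estimate was -1.61 (edgeR adjusted p = 0.0127), while DESeq2 gave an adjusted p of 0.00429 with all libraries. ATP6V1A, the catalytic subunit that pairs with ATP6V1B2, was at 250.1, 254 and 259 CPM in high glucose, against 207, 243 and 273 CPM in normal glucose. The estimate for ATP6V1A was 0.079 (SE 0.122; edgeR adjusted p = 0.694). Its groups overlapped, and those of its partner did not. ATP6V1F, a small subunit of the central stalk and the most abundant V1 gene per length, was at 169.9, 169 and 171 CPM in high glucose, against 151, 156 and 188 CPM in normal glucose. The estimate for ATP6V1F was 0.043 (SE 0.114; edgeR adjusted p = 0.829). ATP6V1D and ATP6V1E1, of the central and outer stalks, had estimates of 0.30 (adjusted p = 0.377) and 0.29 (adjusted p = 0.4). Of the accessory proteins, ATP6AP1, needed for pump assembly, was at 187, 173 and 191 CPM in high glucose, against 202, 203 and 188 CPM in normal glucose. The estimate for ATP6AP1 was -0.11 (SE 0.0955; edgeR adjusted p = 0.478). ATP6AP2, the prorenin receptor, was at 69.7, 33.6 and 87.3 CPM in high glucose, against 111, 51.7 and 85.2 CPM in normal glucose. The estimate for ATP6AP2 was -0.38 (SE 0.389; edgeR adjusted p = 0.541). Its spread in both groups was wider than the difference between their means.

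The a subunit of the membrane sector, which forms the path for protons and directs the pump to a given membrane, is encoded by ATP6V0A1, ATP6V0A2, TCIRG1 and ATP6V0A4. ATP6V0A4, the form known from kidney and inner ear, fell to 2.25 ± 0.457 CPM in high glucose, against 15.8 ± 1.6 CPM in normal glucose (SD, n = 3 each; log2 change -2.81, SE 0.209; edgeR adjusted p = 0.00148), and it was called in all 14 alternatives. ATP6V0A2, the form of the Golgi and endosomes, fell too (log2 change -0.71, SE 0.134; edgeR adjusted p = 0.0145), but had an adjusted p of 0.0587 to 0.0691 when any high glucose library was left out. ATP6V0A1, in a locus with a microRNA gene, was at 103, 102 and 180.5 CPM in high glucose, against 104, 58.7 and 78.6 CPM in normal glucose. The estimate for ATP6V0A1 was 0.67 (SE 0.289; edgeR adjusted p = 0.148). High glucose library 3 lay far above all others. TCIRG1, chosen after its value was seen, had an estimate of -0.031 (adjusted p = 0.914). The summed FPKM of the 4 genes was 12.4 ± 2.94 in high glucose and 12.8 ± 1.28 in normal glucose. Of that sum, ATP6V0A1 held 63.2%, 61.7% and 74% in high glucose, against 46.5%, 31.4% and 40.5% in normal glucose. ATP6V0A4 held 3.35%, 4.18% and 3.37% in high glucose, against 21.7%, 28.4% and 22.3% in normal glucose. The share of ATP6V0A4 was thus several times smaller in every high glucose library, while the sum overlapped between the groups.

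Of 21 tested genes for V-ATPase paralogs and assembly factors, 4 rose (19%) and 3 fell (14.3%). Of all tested loci 9.75% were called higher and 9.86% lower, and of those with a protein-coding transcript 13.1% and 12.4%. Besides ATP6V0A4 and ATP6V0A2, ATP6AP1L, a relative of ATP6AP1, rose (log2 change 1.03, SE 0.197; edgeR adjusted p = 0.0149). ROGDI, of a complex that regulates the pump, in a locus with SEPTIN12, also rose (log2 change 1.39, SE 0.322; edgeR adjusted p = 0.026). ATP6AP1L had an adjusted p of 0.0508 to 0.0712 when any high glucose library was left out, and ROGDI of 0.0738 to 0.0876 when any library other than normal glucose 3 was left out.

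**Figure D4:**
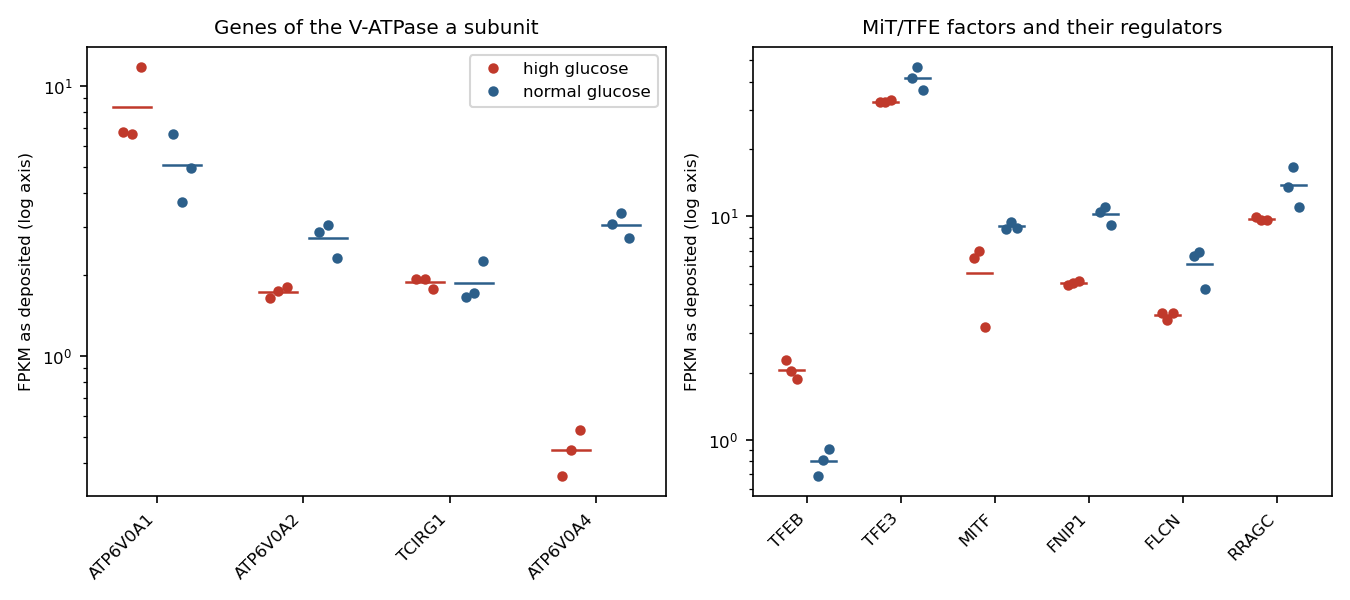
Deposited FPKM (log axis) per library of the 4 genes of the V-ATPase a subunit and of 6 genes of the MiT/TFE factors and their regulators, with high glucose on the left and normal glucose on the right, libraries 1 to 3 from left to right and a line at the mean. ATP6V0A4 is lower and TFEB higher in every high glucose library, and the groups of TCIRG1 overlap.

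Other genes of the lysosome, on lists that did not include the 56, were called in both directions. Of 30 further hydrolases, 6 rose and 6 fell (20% each), with a median log2 change of -0.05. Of all tested loci 9.75% were called higher and 9.86% lower, and of those with a protein-coding transcript 13.1% and 12.4%. CTSO, a cysteine protease, rose (log2 change 1.19, SE 0.154; edgeR adjusted p = 0.00506) and GGH, which trims folate chains, fell (log2 change -1.17, SE 0.162; edgeR adjusted p = 0.00592). RNASET2, a ribonuclease in a locus with RPS6KA2, fell (log2 change -1.62, SE 0.282; edgeR adjusted p = 0.0112), as did AGA, which cleaves sugar from asparagine (log2 change -0.56, SE 0.0994; edgeR adjusted p = 0.0117). RNASET2 and AGA had an adjusted p of 0.0521 to 0.0552 and of 0.0581 to 0.065 when any high glucose library was left out. Of 29 further membrane proteins, 7 fell (24.1%) and 2 rose (6.9%), with a median of -0.17. PIP4P1, a lipid phosphatase, CTNS, the cystine exporter, and the chloride transporters CLCN6 and CLCN7 fell, with estimates of -1.03 (adjusted p = 0.00354), -1.502 (adjusted p = 0.00421), -1.18 (adjusted p = 0.00676) and -1.08 (adjusted p = 0.00687). CLCN6 shares its locus with a clone-named gene. These 4, CTSO and GGH were called in all 14 alternatives. So was ABCA2, a further membrane protein gene that rose (log2 change 1.14, SE 0.195; edgeR adjusted p = 0.0107).

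Of 11 genes that mark, carry or fold hydrolases on their way to the lysosome, 4 fell (36.4%) and 1 rose (9.09%). The shares over all tested loci were 9.86% and 9.75%. GNPTG and NAGPA, which act in turn to make the mannose phosphate tag, fell (log2 change -0.49, SE 0.0923; edgeR adjusted p = 0.0139, and log2 change -0.60, SE 0.12; edgeR adjusted p = 0.0169). IGF2R, the large receptor for that tag, was at 876 ± 34 CPM in high glucose, against 1703 ± 568 CPM in normal glucose (SD, n = 3 each; log2 change -0.96, SE 0.245; edgeR adjusted p = 0.0358). SORT1, a receptor that carries cargo without the tag, was at 729 ± 18.3 CPM in high glucose, against 415 ± 126 CPM in normal glucose (SD, n = 3 each; log2 change 0.81, SE 0.207; edgeR adjusted p = 0.0354). M6PR, the smaller receptor for the tag, was at 167, 63.4 and 185 CPM in high glucose, against 69.4, 69.4 and 71.5 CPM in normal glucose. The estimate for M6PR was 0.98 (SE 0.357; edgeR adjusted p = 0.0987). High glucose library 2 lay below all normal glucose libraries and the other high glucose libraries far above them. GNPTAB, the catalytic partner of GNPTG, was at 283, 284 and 283 CPM in high glucose, against 160.01, 121 and 242 CPM in normal glucose. The estimate for GNPTAB was 0.70 (SE 0.235; edgeR adjusted p = 0.0792). Its groups did not overlap, with the sign opposite to that of GNPTG. Genes of tagging and of transport thus had estimates of both signs. GNPTG was not called when any high glucose library was left out (adjusted p of 0.0646 to 0.0758), nor NAGPA when any of those or normal glucose 1 was left out (0.0508 to 0.0834), nor IGF2R and SORT1 when any library other than normal glucose 3 was left out (0.097 to 0.117 and 0.0657 to 0.108).

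The transcription factors of lysosomal genes differed from one another. TFEB was at 15.5, 14.1 and 13 CPM in high glucose, against 4.87, 5.76 and 6.49 CPM in normal glucose. The estimate for TFEB was 1.31 (SE 0.171; edgeR adjusted p = 0.00507). TFE3, per length the most abundant of the family in these cells at 32.7 and 41.6 FPKM in high and normal glucose, was at 199, 202 and 206 CPM in high glucose, against 264, 295 and 235 CPM in normal glucose. The estimate for TFE3 was -0.39 (SE 0.112; edgeR adjusted p = 0.0504). MITF, the factor of pigment cells, was at 58, 62.7 and 28.7 CPM in high glucose, against 80.5, 86.7 and 82.2 CPM in normal glucose. The estimate for MITF was -0.74 (SE 0.273; edgeR adjusted p = 0.103). High glucose library 3 lay far below the others. TFEB rose, while TFE3 and MITF had estimates of the opposite sign, did not pass the test, and had groups that did not overlap. Of the 9 genes on the list of these factors and their regulators, TFEB alone rose (11.1%) and 3 fell (33.3%). The shares over all tested loci were 9.75% and 9.86%. FNIP1 and FLCN, partners in a complex that keeps TFEB and TFE3 out of the nucleus when nutrients are plentiful, and RRAGC, the small GTPase through which it acts, were the 3 that fell. FNIP1, in a locus with RAPGEF6, was at 117 ± 3.31 CPM in high glucose, against 246 ± 22.8 CPM in normal glucose (SD, n = 3 each; log2 change -1.07, SE 0.107; edgeR adjusted p = 0.00272). FLCN, in a locus with PLD6, and RRAGC, in a locus with MYCBP and GJA9, had estimates of -0.80 (adjusted p = 0.0167) and -0.54 (adjusted p = 0.0481), and neither was called when any library other than normal glucose 3 was left out (0.0507 to 0.0764 and 0.0998 to 0.148). RRAGC lost the call in 10 of the 14 alternatives and IGF2R in 8. TFEB and FNIP1 were called in all 14 alternatives.

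Promoter windows of 300 bases, from 250 before to 50 after the start of transcription in RefSeq (GRCh38.p14), were at hand for 40 of the 56 genes. They were searched on both strands for TCACGTG, the core of the element that TFEB, TFE3 and MITF bind. It was present in the windows of 13 of these 40 genes (32.5%), against 923 of 15843 protein-coding genes (5.83%) and 1226 of 27305 genes of any kind (4.49%). It was present in 5 of 12 genes that fell (41.7%), in 8 of 26 that did not pass the test (30.8%) and in neither of the 2 that rose. The longer TCACGTGA, which holds the core on both strands, was present in 8 of the 40 windows (20.0%), against 262 of 15843 (1.65%). By call, TCACGTGA stood in 2 of 12 genes that fell (16.7%) and in 6 of 26 that did not pass the test (23.1%). Neither of the 2 that rose held it, and its order between these groups was the reverse of that of the core. The stretches below show the core in the 5 genes that fell and, for contrast, in GAA, CTSA and LAMP1, which carry several cores and did not pass the test. Each runs from 15 bases before the first core to 15 after the last, is written 5′ to 3′ on the gene's own strand, and has the core in capitals (CACGTGA is the core read from the other strand, and TCACGTGA holds it on both).
MCOLN1, chr19:7522567-7522631, + strand: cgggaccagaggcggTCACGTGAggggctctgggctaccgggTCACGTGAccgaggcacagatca
ATP6V0B, chr1:43974887-43974941, + strand: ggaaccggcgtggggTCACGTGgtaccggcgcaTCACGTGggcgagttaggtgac
ATP6V1G1, chr9:114587695-114587732, + strand: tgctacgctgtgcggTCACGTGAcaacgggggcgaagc
CTSD, chr11:1763953-1763989, - strand: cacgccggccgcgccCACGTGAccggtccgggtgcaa
CTSF, chr11:66568708-66568744, - strand: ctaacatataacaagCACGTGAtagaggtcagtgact
GAA, chr17:80101489-80101571, + strand: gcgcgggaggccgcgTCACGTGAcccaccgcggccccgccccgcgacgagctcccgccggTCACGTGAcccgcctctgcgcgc
CTSA, chr20:45891277-45891331, + strand: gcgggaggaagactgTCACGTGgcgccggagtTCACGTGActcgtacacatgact
LAMP1, chr13:113297031-113297259, + strand: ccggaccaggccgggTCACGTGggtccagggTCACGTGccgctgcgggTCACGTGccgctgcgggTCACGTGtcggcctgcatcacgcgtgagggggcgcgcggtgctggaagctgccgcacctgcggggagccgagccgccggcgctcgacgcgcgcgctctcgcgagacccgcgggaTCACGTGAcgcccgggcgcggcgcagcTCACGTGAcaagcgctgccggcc

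MCOLN1 (estimate -0.88) and ATP6V0B (-0.997) carry 2 cores each, and ATP6V1G1 (-0.58), CTSD (-0.62) and CTSF (-0.61) carry 1. LAMP1 (-0.19) carries 6, and GAA (-0.28) and CTSA (-0.27) carry 2 each. The estimates for MCOLN1, ATP6V1G1, CTSD and CTSA belong to loci that hold a second gene name, while each window belongs to the named gene. Since the genes shown were picked by their call, their estimates say nothing of the number of cores. GALNS and CLN3, which also carry 2 cores and did not pass the test, are not shown. A match shows that these letters stand in the window and not that a factor was bound there.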

How the data were processed

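Total RNA from 6 ARPE-19 libraries was sequenced as read pairs after selection on oligo-dT beads, per the labels' protocols, which also speak of poly(A)- fractions. The authors deposited 1 table of loci that holds counts and FPKM for each library. The deposited counts are whole numbers without normalization, and the deposited FPKM values are length-scaled and library-scaled values by their name in the file headers, with 0.0001 where the count is 0. Bowtie 0.12.2 and a build called mm8 appear in the submitters' processing notes. The identifiers and coordinates in the table are human, and all 56 members overlapped their RefSeq position in GRCh38.p14. The counting tool and any use of strand are not given in the sources used here. Of the loci, 33633 have identifiers from a transcript assembly, which can merge neighbouring genes. Counts of 4 were more frequent (9555 values) than counts of 3 (4210) or 5 (2659), so 1 fragment may have been counted several times, and intervals of counting error are not given. The 37 mitochondrial loci have a count of 0 throughout. No column was left unmapped.

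Loci kept by filterByExpr (25025) went into edgeR 4.0.16 in R 4.3.3, comparing high with normal glucose (TMM, glmQLFit, glmQLFTest, 2-sided, group as the only term), with Benjamini-Hochberg adjustment over all tested loci and a threshold of 0.05. Each SE was derived from the log2 change and its F statistic, as their ratio after taking the root of F. A member was the locus with an annotated transcript that holds its symbol, and all 56 passed the filter. Members and lists were chosen with earlier results of these data known. Values per library are given for every called member and for the 2 members of each class with the highest mean FPKM; of the other lists up to 4 called genes are named, with TFEB, TFE3 and MITF. Values of CTSS, CTSZ, GM2A, SCARB2, ATP6V0A1, ATP6V1C1, TCIRG1, M6PR, GNPTAB, ABCA2 and the marker genes were added after they were seen. The 14 alternatives were DESeq2 1.42.0, other scalings, no filter, limma 3.58.1 on log2 of FPKM plus 1 or 0.1, counts divided by 4, the replicate number as a block and leaving out libraries 1 at a time. Called members were also counted without loci that hold a second name, which is not among the 14. The edgeR step was tested on simulated data.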

Additional observations from a re-analysis of the deposited data

How the results depend on the processing

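Of the 18 called members, 4 (CTSC, CTSK, NPC1 and MCOLN1) were called in all 14 alternatives, and no called member changed sign in any of them. DESeq2, DESeq2 size factors, upper-quartile scaling, no filter, limma on FPKM and counts divided by 4 gave 12 to 17 lower and 2 to 3 higher members. On FPKM values CTSD (adjusted p = 0.0524 and 0.0536), GLA (0.063 and 0.0542) and TPP1 (0.0542 and 0.0529) were not called and CTSZ was (0.0238 and 0.0252, and 0.0412 with counts divided by 4). TPP1 was not called with upper-quartile scaling (0.0504), nor TPP1 (0.0508) and GUSB (0.0775) without a filter. Without loci that hold a second name, 12 were lower and 1 was higher. That count, which is not among the 14, leaves out MCOLN1, CTSD, TPP1, ATP6V1G1 and IDS.

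When a library was left out, the loci called numbered 1421 to 7615, against 4906 with all libraries. Lower members numbered 5 to 25, against 16, and higher members 0 to 5, against 2. Lower hydrolases and activators numbered 2 to 16, against 9, lower membrane proteins 2 to 4, against 3, and lower V-ATPase genes 0 to 5, against 4. The upper end of each range came without normal glucose 3, and no other omission raised the number of lower members. Each such fit has 1 library fewer.

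Same-numbered libraries of both groups did not deviate together (correlations of -0.0255, 0.0181 and -0.00889 for numbers 1, 2 and 3), and not every library correlated best with its own number, so no pairing was assumed. With a replicate block 2545 loci were called, with 8 lower members (3 hydrolases, 3 membrane proteins and 2 V-ATPase genes) and 1 higher. ATP6V1C1 was called with the block (adjusted p = 0.0376), with DESeq2 (0.00429) and without a filter (0.0492). CTSS had the fewest counts of the members, with 66, 74 and 87 in high glucose and 164, 78 and 191 in normal glucose.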

Other observations

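The spread between libraries was smaller among the lysosomal genes than over all tested loci. The median coefficient of variation in CPM was 5.79% in high glucose and 11.5% in normal glucose over the 56 genes, against 16% in high glucose and 25.9% in normal glucose over all 25025 loci. Levels differ between these sets, and the part of abundance was not tested. Among the normal glucose libraries, library 3 was the nearest to the high glucose mean at 24 of the 56 genes (42.9%) and at 11202 of the tested loci (44.8%). It was the lowest normal glucose library at 19 of the 56 genes and the highest at 20, so it did not lie on one side for the members as a whole. The mean log2 deviation over the 56 genes, from the mean of all libraries, was -0.10, -0.14 and -0.09 in high glucose libraries 1, 2 and 3, against 0.12, 0.09 and 0.13 in normal glucose libraries 1, 2 and 3.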
